A study of Danio rerio with 13 samples.

Results

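Gut enteroendocrine cells (EECs) were compared with pancreatic endocrine cells (PECs) in zebrafish that lacked the transcription factor Pax6b. The 6 mutant samples among the 13 of the series were chosen by their labels, 3 preparations of each tissue, and all genes of their count tables were used. Mutant EECs were GFP+ cells from the dissected gut of larvae at 4 days post-fertilization (dpf), and mutant PECs were GFP+ cells from the dissected dorsal pancreatic bud of embryos at 27 hours post-fertilization (hpf). Both carried the null allele pax6b sa0086 on both chromosomes and the transgene Tg(pax6b:GFP)ulg515 in the AB strain. They were offspring of inbred heterozygotes and were picked by a missing or reduced lens. The paper states that every pax6b read of the mutant samples held the null allele. Wild-type EECs at 4 dpf and wild-type PECs at 27 hpf carried the same transgene in the same strain, and 3 preparations of each served to tell which tissue differences were there with Pax6b. Each preparation pooled about 200 animals and passed through cell sorting in 2 rounds, so a sample is a mixture of all cells in which the pax6b promoter drove GFP, of every endocrine subtype. The gut was dissociated with collagenase IV and Dispase and the pancreatic bud with TrypLE Select and collagenase IV, so tissue, age and dissociation cannot be told apart in any comparison of EECs with PECs. The p-values measure the spread between these preparations.

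EECs and PECs are small sets of hormone-secreting cells that form one by one from endodermal progenitors. In mouse and zebrafish, both depend on proneural factors for their start and on a shared set of transcription factors, among them Pax6, Neurod1, Isl1 and Insm1, that sets which hormones each cell makes. In the islet Pax6 is known for keeping up insulin, glucagon and somatostatin genes and for holding back ghrelin. Gut hormones include cholecystokinin, peptide YY and motilin, and peptide YY is made by pancreatic endocrine cells too.

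The 6 mutant samples held 22423938 to 51874978 counts on genes, so that 3 counts, the smallest level taken as detected, were 0.0578 to 0.134 CPM per sample. CPM is a gene's count scaled to 1000000 counts on all genes of its sample. The tissue labels were checked against marker genes. This check is not independent of the series, since the paper found the gut markers adcyap1a and penka in its own EEC libraries. Hormone genes among the markers are also reported below. All 8 gut endocrine markers were higher in mutant EECs, where they summed to 16589 to 22973 CPM, against 60.5 to 75.4 CPM in mutant PECs, and 6 of 7 pancreatic endocrine markers were higher in mutant PECs, with sums of 402 to 432 CPM in mutant EECs and 7367 to 10627 CPM in mutant PECs. Enterocyte markers, 12 of 13 of them higher in mutant EECs, summed to 1142 to 2538 CPM in mutant EECs, against 34.5 to 55.1 CPM in mutant PECs. The globin and other red blood cell markers summed to 0.12 to 4.2 CPM in mutant EECs, against 56.2 to 151 CPM in mutant PECs.

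The transcript of pax6b itself (ENSDARG00000045936) was read in every sample. It had 1028, 1249 and 1473 CPM in mutant EECs, against 3761, 3199 and 7529.5 CPM in mutant PECs. All mutant PECs were above all mutant EECs, with a log2 fold change of EECs against PECs of -1.72 ± 0.34 (SE, n = 3 each, adjusted p = 0.00111), which here and below comes from the quasi-likelihood test of edgeR, adjusted after Benjamini and Hochberg over all genes tested. Wild-type cells gave 557, 735 and 466 CPM in wild-type EECs, against 5086, 3660.3 and 2509 CPM in wild-type PECs. The level of the transcript does not check the genotype, since the null allele was still transcribed, and the sort itself rested on the pax6b promoter. The paralogue pax6a was nearly silent in mutant EECs, where it had 0.443, 0.21 and 0.491 CPM, against 25.5, 20.1 and 17.2 CPM in mutant PECs. Wild-type PECs had 3.18, 2.33 and 1.87 CPM of it.

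Most tissue differences seen with Pax6b were there without it. Of 21067 genes tested, 7323 differed between mutant EECs and mutant PECs at an adjusted p under 0.1, which is 34.8% of all genes. Higher levels in mutant EECs were found for 4083 genes (19.4%) and higher levels in mutant PECs for 3240 (15.4%). Between wild-type EECs and wild-type PECs, which share no sample with the mutants, 7653 genes (36.3%) differed. A tissue difference was counted as remaining when it was called in both genotypes in the same direction, and this held for 4872 genes, or 66.5% of the mutant calls and 63.7% of the wild-type calls. Of these, 2868 were higher in EECs and 2004 in PECs.

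Fewer genes had a tissue difference that itself differed between the genotypes. The interaction of genotype and tissue, the difference between the mutant and the wild-type log2 fold changes, was called for 755 genes (3.58% of those tested), and for 503 without mutant PEC replicate 1. It was called for 281 of the remaining genes, with the difference smaller in mutants for 143 and larger for 138. A difference was counted as vanished when it was called in wild type, not in mutants, and the interaction was called, which gave 179 genes (0.85% of those tested), 93 of them higher in wild-type EECs and 86 in wild-type PECs. It was counted as appeared in the opposite case, which gave 196 genes, 89 higher in mutant EECs and 107 in mutant PECs. For another 102 genes the tissue difference was reversed, called in both genotypes in opposite directions. The number of vanished genes ran from 115 without mutant PEC replicate 1 to 290 without wild-type PEC replicate 3, that of appeared genes from 130 without mutant PEC replicate 1 to 273, and that of reversed genes fell to 65 without wild-type PEC replicate 2. A further 2153 genes were called in mutants alone and 2500 in wild type alone with no called interaction, and for these the data do not tell whether the genotypes differed.

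**Figure D1:**
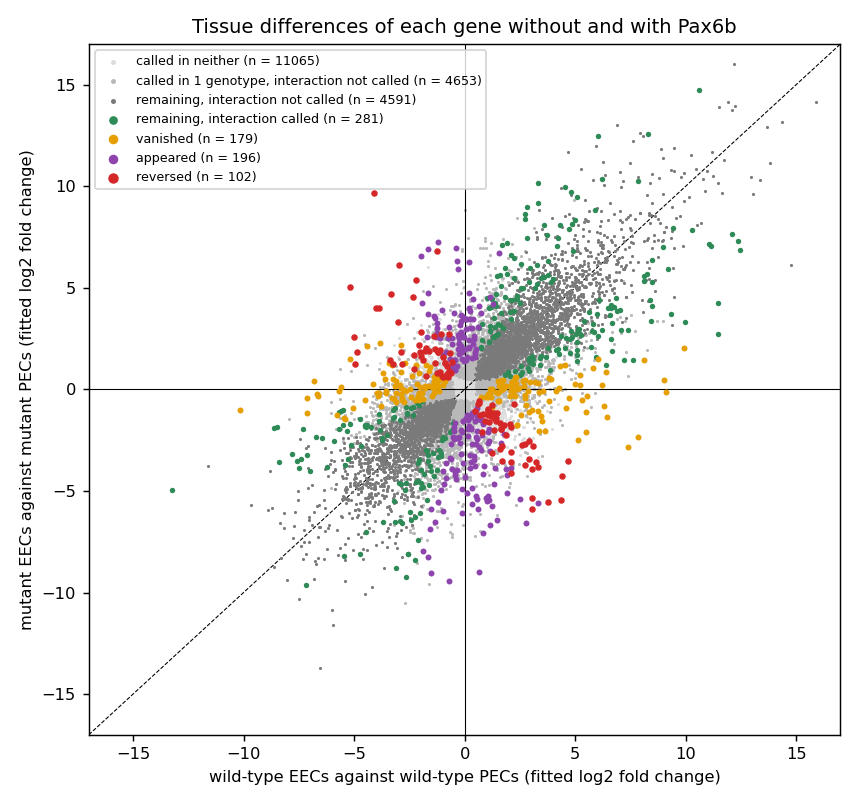
Fitted log2 fold change of mutant EECs against mutant PECs (y axis) and of wild-type EECs against wild-type PECs (x axis) for each of the 21067 genes tested, coloured by class. Of the 4872 remaining genes, the 4591 without a called interaction lie along the dashed line of equal change. The 281 with a called interaction lie away from it. The 179 vanished genes lie near the horizontal zero line, the 196 appeared genes near the vertical one, and the 102 reversed genes in the upper left and lower right.

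Across the 21067 genes, the mutant and wild-type log2 fold changes had a Pearson r of 0.74 and a Spearman rho of 0.686, and 75.4% of genes had the same sign. Genes are not independent replicates, and these values describe the table only. Euclidean distances were taken on the variance-stabilized counts of DESeq2. Their mean between mutant EECs and mutant PECs was 264 over 9 pairs of samples (range 248 to 275). Between wild-type EECs and wild-type PECs it was 274 (256 to 305). These ranges overlap. Mutant and wild-type cells of the same tissue lay closer, at 184 in EECs (158 to 220) and 177 in PECs (164 to 189). Preparations of the same group lay at 144 in mutant EECs, 177 in wild-type EECs, 139 in mutant PECs and 138 in wild-type PECs. In EECs the range between the genotypes overlapped that within wild type (148 to 200).

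Most gut hormones kept their tissue bias without Pax6b. Of 49 peptide hormone genes tested, 20 were higher in mutant EECs and 15 in mutant PECs, where 19.4% and 15.4% of all genes were. For 31 of the 49 the difference remained, against 23.1% of all genes. In wild type 23 of the 49 were higher in EECs and 18 in PECs, where 20.1% and 16.2% of all genes were. Here, as in all values from sorted cells in bulk, fewer cells of a type and less RNA per cell cannot be told apart. The neuropeptide gene adcyap1a, which codes for PACAP, had 2118, 2529 and 2183 CPM in mutant EECs, against 0.458, 0.206 and 0.362 CPM in mutant PECs. These groups were far apart, with a log2 fold change of 12.9 ± 0.51 (SE, adjusted p = 4.88e-11), against 13.66 ± 0.52 in wild type. The cholecystokinin gene ccka, whose product slows gastric emptying, had 6248, 6782 and 5355 CPM in mutant EECs, against 0.0573, 2.22 and 0.181 CPM in mutant PECs. Every mutant EEC preparation was above every mutant PEC preparation (log2 fold change 13.18 ± 1.72, adjusted p = 2.35e-04). The proenkephalin gene penka, a source of opioid peptides, had 4357, 5735 and 1742 CPM in mutant EECs, against 3.44, 4.81 and 10.1 CPM in mutant PECs, with no overlap between the tissues. A kept tissue bias is not a kept level. The paper gives lower means in mutant than in wild-type EECs for adcyap1a and for vipb (below), and a higher mean for ccka.

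Other gut peptides had the same pattern at lower levels. Neuromedin B (nmbb) had a log2 fold change of 6.94 ± 0.69 between mutant EECs and mutant PECs, and 6.21 ± 0.67 in wild type. Calcitonin (calca) had 339, 379.9 and 163 CPM in mutant EECs, against 12, 25.7 and 21.7 CPM in mutant PECs, a log2 fold change of 4.15 ± 0.43 (adjusted p = 1.54e-06). Its level in mutant EECs was below the 1450.1, 1847 and 1913 CPM of wild-type EECs (mutant against wild type, adjusted p = 0.00158). Vasoactive intestinal peptide (vipb), a relaxant of smooth muscle in mammals, had 105, 241 and 139 CPM in mutant EECs and at most 0.289 CPM in mutant PECs. Tac1, the gene of substance P, had 3.68, 4.98 and 4.59 CPM in mutant EECs, against 0.973, 0.945 and 0.904 CPM in mutant PECs, a log2 fold change of 2.47 ± 0.47 (adjusted p = 7.02e-04).

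Galanin (galn) was the least even of the gut peptides. It had 28.3, 0.18 and 0.624 CPM in mutant EECs, against 0.315, 0 and 0.145 CPM in mutant PECs, and the mutant EEC level rested on replicate 1. Its call between the mutant tissues (log2 fold change 6.11, adjusted p = 0.0345) lost its call in 4 of the 12 fits that left out 1 sample (mutant EEC replicate 1, mutant PEC replicates 1, 2 and 3), with adjusted p up to 0.396. Wild-type EECs had 370.2, 475 and 1217 CPM. The incretin gene gip had 5.46, 127 and 6.47 CPM in mutant EECs and was at 0 in all 3 preparations of mutant PECs. Against the floor of 3 counts per library, gip was at least 437-fold higher in mutant EECs, with 1 preparation far above the others.

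For 6 gut hormones the tissue difference remained but changed in size. Peptide YY (pyyb), which curbs food intake in mammals, had 3556, 2649 and 3392 CPM in mutant EECs, against 16.8, 14.6 and 17.6 CPM in mutant PECs. Its log2 fold change of 7.85 ± 0.33 in mutants was smaller than the 10.29 ± 0.36 in wild type (interaction, adjusted p = 8.56e-04), with 29657, 32919 and 29822 CPM in wild-type EECs. The 3 mutant EEC preparations were all below the 3 wild-type ones and far above all mutant PECs. The second peptide YY gene, pyya, went the other way, with 119.6, 117 and 149 CPM in mutant EECs, against 2.46, 2.92 and 4.12 CPM in mutant PECs. Wild-type PECs held 71.7, 97.6 and 103 CPM of it, so its log2 fold change was 5.57 ± 0.34 in mutants and 1.46 ± 0.28 in wild type (interaction, adjusted p = 2.98e-05).

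The relaxin-family gene insl5a, a product of distal gut endocrine cells in mammals, and the motilin-like gene mlnl had smaller tissue differences in mutants, where their PEC levels were higher. Insl5a had 3709, 3714 and 2763 CPM in mutant EECs, against 28.1, 29.7 and 34.4 CPM in mutant PECs, while wild-type PECs had 1.8, 3.08 and 0.986 CPM (log2 fold change 7.04 ± 0.58 in mutants and 11.13 ± 0.68 in wild type, interaction adjusted p = 0.00272). Mlnl had 3589, 5046 and 3075 CPM in mutant EECs, against 369, 285 and 297 CPM in mutant PECs. Wild type gave 669, 608 and 843 CPM in wild-type EECs, against 7.22, 7.18 and 3.81 CPM in wild-type PECs. It was higher in mutants in both tissues (mutant against wild type, adjusted p = 4.88e-04 in EECs and 3.70e-07 in PECs), with a log2 fold change of 3.87 ± 0.35 in mutants and 6.89 ± 0.4 in wild type (interaction, adjusted p = 0.0013). Neuromedin U (nmu) had log2 fold changes of 4.0 in mutants and 6.51 in wild type (interaction, adjusted p = 0.0492). This interaction lost its call in 5 of the 12 fits that left out 1 sample (mutant EEC replicates 2 and 3, mutant PEC replicates 1 and 2, wild-type EEC replicate 3), with adjusted p up to 0.134. Insl5b had 0.945, 3.96 and 3.7 CPM in mutant EECs, against 1.4, 0.329 and 1.34 CPM in mutant PECs, which overlap, and its wild-type difference was 5.1 ± 0.64, against 1.68 ± 0.61 in mutants (interaction, adjusted p = 0.043). For insl5b the interaction lost its call in 4 of the 12 fits that left out 1 sample (mutant PEC replicates 1 and 3, wild-type EEC replicate 3, wild-type PEC replicate 2), with adjusted p up to 0.157, and the mutant difference (adjusted p = 0.0518) lost its call in 3 of the 12 fits that left out 1 sample (mutant EEC replicates 2 and 3, mutant PEC replicate 2), with adjusted p up to 0.195.

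**Figure D2:**
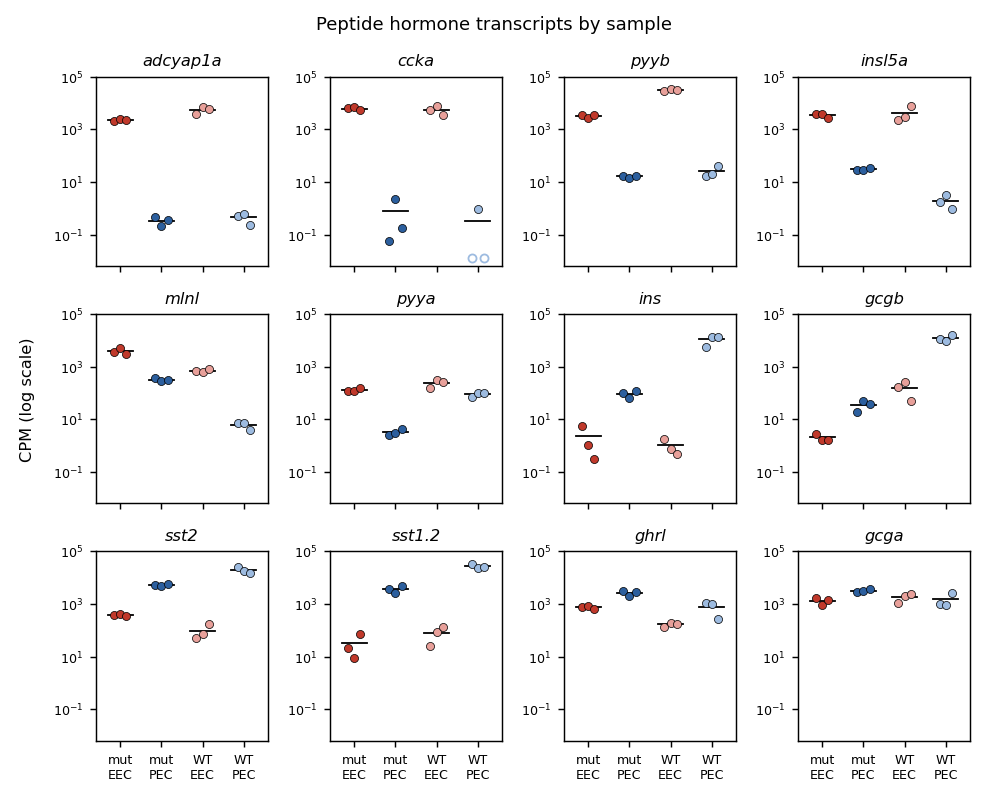
Levels of 12 peptide hormone genes in CPM on a log scale, 1 point per preparation and a line at the mean of each group (mut, pax6b mutant; WT, wild type); open circles are preparations at 0. The gut hormones ccka and adcyap1a were at 5355 to 6782 and 2118 to 2529 CPM in mutant EECs, while ins stood at 66.4 to 114 CPM in mutant PECs, against 5532 to 13639.7 CPM in wild-type PECs.

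The pancreatic hormone genes ins and sst2 remained higher in mutant PECs, but by less than in wild type. Insulin (ins, ENSDARG00000035350) had 5.76, 1.05 and 0.312 CPM in mutant EECs, against 96.5, 66.4 and 114 CPM in mutant PECs. All mutant PECs were above all mutant EECs, with a log2 fold change of -4.96 ± 0.84 (SE, adjusted p = 7.86e-04). In wild-type PECs ins had 5532, 12991 and 13639.7 CPM, and the wild-type log2 fold change was -13.25 ± 1.17 (interaction, adjusted p = 0.00265). The delta-cell hormone gene sst2 (somatostatin) was higher in mutants in EECs and lower in PECs (mutant against wild type, adjusted p = 0.0134 and 0.00206). It had 367, 411 and 346 CPM in mutant EECs, against 5358, 4583 and 5631 CPM in mutant PECs. Wild type gave 48.7, 74.8 and 168 CPM in wild-type EECs, against 25097, 17982 and 15386 CPM in wild-type PECs, so the log2 fold change was -3.55 ± 0.41 in mutants and -7.58 ± 0.49 in wild type (interaction, adjusted p = 5.45e-04).

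Glucagon has a pair of genes in zebrafish, and they differed. Gcgb had 2.76, 1.68 and 1.69 CPM in mutant EECs, against 19.7, 47.9 and 37.2 CPM in mutant PECs. Its wild-type values were 163, 263 and 49.99 CPM in wild-type EECs, against 11320.2, 9584 and 16399 CPM in wild-type PECs. It was lower in mutants in both tissues (mutant against wild type, adjusted p = 8.44e-06 in EECs and 3.70e-07 in PECs), and its tissue difference stayed at -3.84 ± 0.49, against -6.24 ± 0.53 in wild type (interaction, adjusted p = 0.0545). The gcgb interaction lost its call in 3 of the 12 fits that left out 1 sample (mutant EEC replicate 1, mutant PEC replicate 1, wild-type EEC replicate 1), with adjusted p up to 0.152. Gcga had 1634, 892 and 1382 CPM in mutant EECs, against 2892, 2956 and 3546 CPM in mutant PECs, a log2 fold change of -1.03 ± 0.35 (adjusted p = 0.036) that lost its call in 1 of the 12 fits that left out 1 sample (mutant EEC replicate 2), with adjusted p up to 0.15. In wild type gcga did not differ at the threshold (0.39 ± 0.35, adjusted p = 0.437), and neither was the interaction called (adjusted p = 0.188). The somatostatin gene sst1.2 had 21.6, 8.52 and 68.7 CPM in mutant EECs, against 3579, 2567 and 4731 CPM in mutant PECs, a log2 fold change of -6.6 ± 0.81 (adjusted p = 3.59e-05), against -8.33 ± 0.87 in wild type. For sst1.1 the values were 0.501, 0.030 and 0 CPM in mutant EECs, against 31.4, 17.1 and 42.6 CPM in mutant PECs.

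Ghrelin and its activating enzyme were higher in mutant PECs than in mutant EECs. Ghrelin (ghrl), the stomach and islet peptide that drives appetite in mammals, had 768, 842 and 621 CPM in mutant EECs, against 3109, 1925 and 2786 CPM in mutant PECs, with no overlap. The log2 fold change was -1.56 ± 0.41 (adjusted p = 0.00919), against -2.26 ± 0.42 in wild type, and the interaction was not called (adjusted p = 0.687). Mboat4, the enzyme that attaches the fatty acid to ghrelin, had 0.193, 1.14 and 1.96 CPM in mutant EECs, against 132, 93.5 and 277 CPM in mutant PECs. In wild-type PECs it had 0.287, 1.06 and 0.339 CPM, and mutant PECs were above these in every preparation. Adrenomedullin 2 (adm2a) had a log2 fold change of -1.74 ± 0.41 in mutants and -2.33 ± 0.42 in wild type.

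The urotensin-related peptide genes urp1 and urp2 were both higher in mutant PECs than in mutant EECs. Urp2 was at 0 in all 3 preparations of mutant EECs and had 36.6, 48.7 and 65.5 CPM in mutant PECs, at least 536-fold more against the floor. It was higher in wild-type PECs as well, at 5.63, 19.7 and 3.1 CPM, against at most 0.298 CPM in wild-type EECs (adjusted p = 2.17e-04), and its difference between mutant and wild-type PECs was not called (adjusted p = 0.13). Urp1 had 5.67, 1.17 and 6.78 CPM in mutant EECs, against 262, 159.7 and 310.5 CPM in mutant PECs. In wild type it had 0.309, 3.75 and 7.47 CPM in wild-type EECs, against 0.0781, 0.752 and 0.129 CPM in wild-type PECs, so that its tissue difference was counted as reversed, at -5.54 ± 1.1 in mutants and 3.79 ± 1.17 in wild type (interaction, adjusted p = 0.0105). The wild-type groups of urp1 were low and overlap, while the mutant groups do not. Prodynorphin (pdyn) had 6.9, 6.42 and 6.87 CPM in mutant EECs, against 31.4, 10.2 and 51.8 CPM in mutant PECs (log2 fold change -1.97, adjusted p = 0.0407). The pdyn difference lost its call in 2 of the 12 fits that left out 1 sample (mutant EEC replicate 2, mutant PEC replicate 3), with adjusted p up to 0.207. Neuromedin B of the second gene, nmba, was called in wild type (log2 fold change -5.0) but not in mutants (-2.62 ± 1.08, adjusted p = 0.101), with 1 mutant EEC preparation at 32.4 CPM. A second PACAP gene, adcyap1b, was at 39.6, 53.6 and 55 CPM in mutant EECs, against 39, 33 and 57.8 CPM in mutant PECs. These groups overlap, while in wild type it was higher in EECs (1.89 ± 0.4, adjusted p = 0.00171), and the interaction was not called (adjusted p = 0.228).

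Among 48 transcription factors of endocrine differentiation, 18 were higher in mutant EECs and 17 in mutant PECs, against 17 and 20 in wild type. For 31 of them the difference remained. Over all genes, 19.4% and 15.4% were called in these directions in mutants and 20.1% and 16.2% in wild type, and 23.1% remained. Factors of the islet with large differences toward mutant PECs included mnx1 and HHEX. Mnx1, a homeodomain factor of beta cells, had 0.212, 0 and 0.357 CPM in mutant EECs, against 79.1, 77.7 and 65.1 CPM in mutant PECs, a log2 fold change of -8.43 ± 0.59 (adjusted p = 2.13e-08). HHEX (ENSDARG00000098231), a delta-cell factor in mouse, had 0.0193, 0.030 and 0.357 CPM in mutant EECs, against 24.9, 17.9 and 25.3 CPM in mutant PECs, a log2 fold change of -7.52 ± 0.76, against -7.26 ± 0.69 in wild type. Names in capitals are those of the reference gene list, which gives some zebrafish genes their human-style symbol.

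Isl1 and neurod1, factors of both endocrine tissues, had log2 fold changes in mutants within their errors of those in wild type. Isl1 had 99.5, 165 and 128 CPM in mutant EECs, against 1723, 1749.8 and 2279 CPM in mutant PECs, with a log2 fold change of -3.63 ± 0.28 in mutants and -3.58 ± 0.27 in wild type. Neurod1 had 650.4, 742 and 728 CPM in mutant EECs, against 3459, 3222 and 4088 CPM in mutant PECs, and its log2 fold change was -2.1 ± 0.21 in mutants and -2.1 ± 0.21 in wild type. For neither was the interaction called. Insm1a (log2 fold change -2.01 in mutants and -2.94 in wild type), rfx6 (-1.79 and -2.12) and foxa2 (-1.18 and -0.68) were likewise higher in PECs of both genotypes.

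Gut-side factors remained on the EEC side. The LIM-homeodomain gene lmx1ba had 72.3, 108 and 61 CPM in mutant EECs, against 0.0859, 0.0411 and 0.0723 CPM in mutant PECs, a log2 fold change of 10.37 ± 0.61 (adjusted p = 3.30e-09). The proneural gene neurog3, which starts endocrine differentiation in mouse, had 64.8, 96.7 and 65.5 CPM in mutant EECs, against 0.0573, 0 and 0.253 CPM in mutant PECs. Wild-type EECs had 8.27, 10.03 and 4.2 CPM, below every mutant EEC preparation. The tissue difference of neurog3 was 9.71 ± 0.66 in mutants and 4.81 ± 0.53 in wild type (interaction, adjusted p = 0.00271). The intestinal homeobox gene cdx1b also had a larger difference in mutants (4.97 ± 0.34, against 3.2 ± 0.31 in wild type, interaction adjusted p = 0.0259). The endodermal factors gata5 (log2 fold change 3.52 in mutants and 3.52 in wild type), foxa1 (2.4 and 2.36) and onecut1 (3.93 and 4.89) had called differences in both genotypes and no called interaction.

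A second group of gut-side factors had smaller differences in mutants. Gata6 had 133, 143 and 95.1 CPM in mutant EECs, against 66.1, 38.1 and 21.6 CPM in mutant PECs, while wild-type PECs had 3.7, 1.54 and 5.57 CPM (log2 fold change 1.81 ± 0.38 in mutants and 4.77 ± 0.44 in wild type, interaction adjusted p = 0.00577). The nuclear receptor gene hnf4g (log2 fold change 2.61 in mutants and 4.38 in wild type, adjusted p = 0.00754) and the zinc finger gene insm1b (0.93 and 2.91, adjusted p = 0.0151) had the same direction of interaction. The insm1b difference in mutants lost its call in 1 of the 12 fits that left out 1 sample (mutant EEC replicate 2), with adjusted p up to 0.12. On the PEC side, nhlh2 (log2 fold change -4.01 in mutants and -7.01 in wild type, adjusted p = 0.00546) and tbx2b (-1.73 and -5.5, adjusted p = 0.0252) had smaller differences in mutants. For tbx2b the mutant difference lost its call in 2 of the 12 fits that left out 1 sample (mutant EEC replicate 2, mutant PEC replicate 2), with adjusted p up to 0.117. Hnf4a (log2 fold change 1.94 in mutants and 0.78 in wild type) and fev (1.4 and 0.63), a factor of serotonin neurons and endocrine progenitors, were called on the EEC side in both genotypes, with no called interaction.

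For 4 of the 48 factors the tissue difference vanished, against 0.85% of all genes. Nkx6.2, a beta-cell homeobox gene of the zebrafish islet, had 4.74, 9.66 and 5.17 CPM in mutant EECs, against 11.6, 7.24 and 6.11 CPM in mutant PECs, and the groups overlap. Wild-type PECs had 283, 233 and 296 CPM, which gave a log2 fold change of -5.7 ± 0.42 in wild type, against -0.1 ± 0.35 in mutants (interaction, adjusted p = 1.81e-05). Emx2, a homeobox gene, had 0.617, 1.77 and 1.34 CPM in mutant EECs, against 0.716, 1.36 and 1.27 CPM in mutant PECs, again overlapping, where wild-type PECs had 53.1, 201 and 239 CPM (interaction, adjusted p = 3.95e-05). Pdx1, a regulator of pancreas formation and of insulin, had 22.7, 28.4 and 68.4 CPM in mutant EECs, against 25.1, 20.7 and 45.5 CPM in mutant PECs. Its wild-type values were 397, 356 and 471 CPM in wild-type EECs, against 1001, 1040.4 and 1354 CPM in wild-type PECs. Mutant cells of both tissues lay below the wild-type cells of the same tissue in every preparation, and the tissue difference was 0.6 ± 0.35 in mutants and -1.39 ± 0.35 in wild type (interaction, adjusted p = 0.042). The pdx1 interaction lost its call in 3 of the 12 fits that left out 1 sample (mutant EEC replicate 3, mutant PEC replicates 1 and 2), with adjusted p up to 0.12. The fourth was hnf1ba, at -0.18 ± 0.24 in mutants and -1.4 ± 0.24 in wild type (interaction, adjusted p = 0.0699). Its interaction lost its call in 7 of the 12 fits that left out 1 sample (mutant EEC replicates 1 and 2, mutant PEC replicates 1 and 2, wild-type EEC replicates 1 and 2, wild-type PEC replicate 1), with adjusted p up to 0.201.

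For 2 of the 48 factors a tissue difference appeared, against 0.93% of all genes. Etv1, an ETS-family gene, had 78.5, 74 and 71.8 CPM in mutant EECs, against 258, 257 and 262 CPM in mutant PECs, with no overlap, while in wild type it had 328, 260.3 and 222 CPM in wild-type EECs, against 222, 142 and 255 CPM in wild-type PECs (log2 fold change -1.55 ± 0.22 in mutants and 0.46 ± 0.22 in wild type, interaction adjusted p = 0.00178). In mutant EECs every preparation was below every wild-type one. Arxa, the alpha-cell homeobox gene, had 48, 39.9 and 59.5 CPM in mutant EECs, against 252, 222 and 243 CPM in mutant PECs. In wild-type PECs it had 36.5, 33.1 and 102 CPM, and its tissue difference was -2.05 ± 0.32 in mutants and -0.47 ± 0.31 in wild type (interaction, adjusted p = 0.0781). The arxa interaction lost its call in 9 of the 12 fits that left out 1 sample (mutant EEC replicates 1 and 2, mutant PEC replicates 1, 2 and 3, wild-type EEC replicates 1 and 2, wild-type PEC replicates 1 and 2), with adjusted p up to 0.208. Pax4, a repressor of alpha-cell fate in mouse, was called in mutants alone (1.1 ± 0.38, adjusted p = 0.0403) with no called interaction, and this difference lost its call in 4 of the 12 fits that left out 1 sample (mutant EEC replicates 2 and 3, mutant PEC replicates 1 and 2), with adjusted p up to 0.171.

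**Figure D3:**
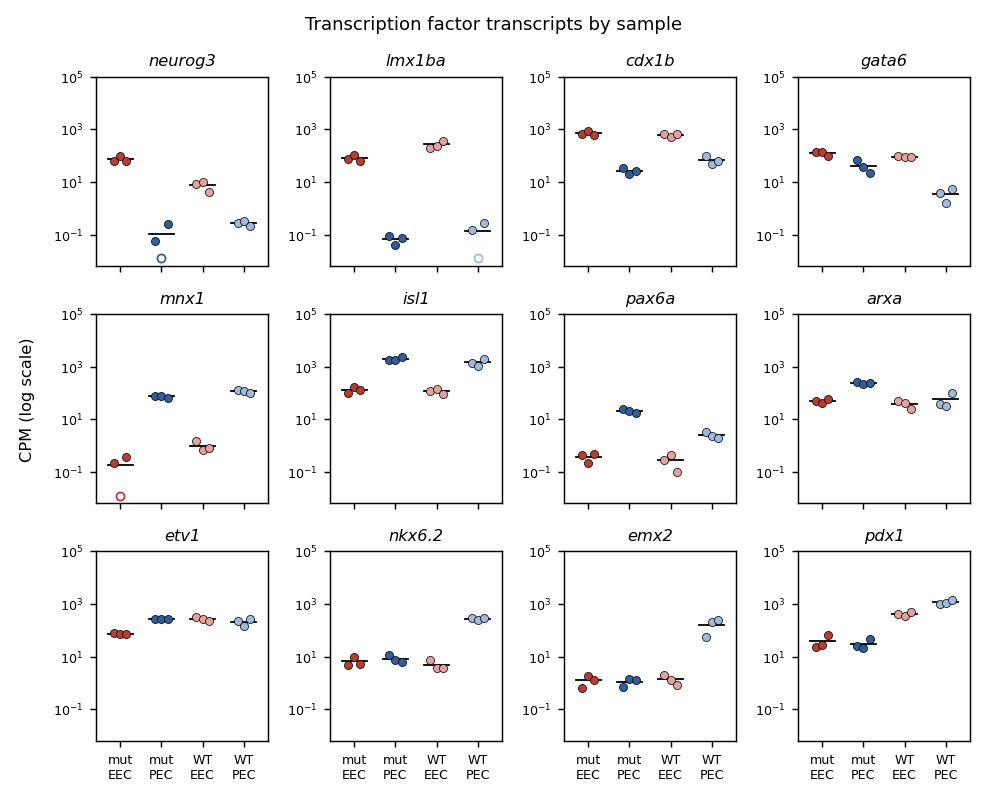
Levels of 12 transcription factor genes in CPM on a log scale, 1 point per preparation and a line at the mean of each group (mut, pax6b mutant; WT, wild type); open circles are preparations at 0. Isl1 kept the same spacing between tissues in both genotypes, nkx6.2 was at 4.74 to 9.66 CPM in mutant EECs and 6.11 to 11.6 CPM in mutant PECs, and arxa stood apart in mutant PECs at 222 to 252 CPM.

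The largest differences between the mutant tissues were in genes with almost no reads in one of them. On the EEC side, the tetraspanin gene tspan34 had 212, 166 and 261 CPM in mutant EECs and was at 0 in all 3 preparations of mutant PECs, at least 2009-fold more against the floor. The LIM-domain gene crip1 had 922, 913 and 755 CPM in mutant EECs, against 0.0859, 0 and 0 CPM in mutant PECs, which came from 3 counts in mutant PECs and gave a ratio of pooled CPM of 25619 (95% exact counting interval 8766 to 124230.0). In wild-type PECs crip1 had 0.26, 0.479 and 0.469 CPM, and the interaction was called (adjusted p = 0.00306). Plac8.1 had 727, 596 and 449 CPM in mutant EECs and 3 counts over all mutant PECs, a ratio of 18198 (95% exact counting interval 6227 to 88245). The membrane protein gene tmem176l.2 had 3676, 2588 and 1925 CPM in mutant EECs, against 0.115, 0.206 and 0.217 CPM in mutant PECs, a log2 fold change of 14.15 ± 0.78, against 11.93 ± 0.7 in wild type.

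On the PEC side, the otoconin gene oc90 had 0.154, 0.51 and 0.268 CPM in mutant EECs, against 276, 279 and 303 CPM in mutant PECs, a log2 fold change of -9.63 ± 0.45 (adjusted p = 3.31e-10). In wild type it was -7.18 ± 0.4, with EEC levels of 1.58, 1.01 and 1.55 CPM (interaction, adjusted p = 0.0116). The G protein subunit gene gnb5b had 0.173, 0 and 0.357 CPM in mutant EECs, against 67.7, 56.1 and 124 CPM in mutant PECs, and its log2 fold changes of -8.73 ± 0.81 in mutants and -8.64 ± 0.79 in wild type were within their errors of each other. The homeobox gene MKX (ENSDARG00000075450) was a gene of mutant PECs. It had 0.0771, 0.33 and 0.0446 CPM in mutant EECs, against 56.7, 61.1 and 69 CPM in mutant PECs, where wild-type PECs had 1.25, 1.81 and 3.76 CPM (log2 fold change -8.39 ± 0.68 in mutants and -2.23 ± 0.53 in wild type, interaction adjusted p = 4.59e-04). The myosin light chain gene myl10 had log2 fold changes of -8.57 in mutants and -6.74 in wild type.

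Among the 281 genes whose tissue difference remained but changed in size, the largest interactions joined metabolic and membrane genes. NAT8L (ENSDARG00000077256), the enzyme that makes N-acetylaspartate in mammals, had 2.83, 5.34 and 6.87 CPM in mutant EECs, against 862, 1269 and 827 CPM in mutant PECs. Wild type gave 16.8, 10.3 and 8.27 CPM in wild-type EECs, against 53.7, 41 and 66.5 CPM in wild-type PECs, so that the log2 fold change was -7.4 ± 0.41 in mutants and -2.11 ± 0.32 in wild type (interaction, adjusted p = 1.65e-05). The retinoid-related receptor gene rorcb also grew, with 507, 269 and 329 CPM in mutant EECs, against 3.81, 2.67 and 3.0 CPM in mutant PECs. Wild-type PECs had 70.04, 80.4 and 83.4 CPM, so the larger difference lay with the lower PEC level (log2 fold change 7.1 ± 0.4 in mutants and 1.7 ± 0.31 in wild type, interaction adjusted p = 1.65e-05). The lipase gene lipia had log2 fold changes of 8.98 in mutants and 2.83 in wild type (adjusted p = 0.00277).

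A pair of gluconeogenic enzymes was among the genes with a larger EEC bias in mutants. Pck1, which makes phosphoenolpyruvate, had 817, 267 and 32.3 CPM in mutant EECs, against 0.0859, 0.945 and 0.217 CPM in mutant PECs, while wild-type EECs had 4.6, 6.85 and 5.01 CPM. The mutant EEC preparations were all above the wild-type ones but spread widely, and the interaction (log2 fold change 10.15 in mutants and 3.31 in wild type, adjusted p = 0.0545) lost its call in 6 of the 12 fits that left out 1 sample (mutant PEC replicates 1 and 3, wild-type EEC replicates 1 and 3, wild-type PEC replicates 1 and 2), with adjusted p up to 0.212. Fructose-bisphosphatase fbp1b had 160.1, 36.4 and 21.1 CPM in mutant EECs and 1 count over all mutant PECs, a ratio of 8068 (95% exact counting interval 1448 to 318700.0). Its interaction was just past the threshold (adjusted p = 0.0999) and lost its call in 8 of the 12 fits that left out 1 sample (mutant EEC replicate 2, mutant PEC replicates 1, 2 and 3, wild-type EEC replicates 1 and 2, wild-type PEC replicates 1 and 2), with adjusted p up to 0.319, and it was not called with RLE scaling.

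In the other direction, the flippase gene atp8b3 had 59.5, 155 and 74.5 CPM in mutant EECs, against 57, 56.2 and 35.9 CPM in mutant PECs, while wild-type PECs had 1.22, 0.923 and 0.436 CPM (log2 fold change 1.21 ± 0.39 in mutants and 6.37 ± 0.5 in wild type, interaction adjusted p = 1.08e-04). The atp8b3 difference in mutants lost its call in 2 of the 12 fits that left out 1 sample (mutant EEC replicate 2, mutant PEC replicate 3), with adjusted p up to 0.256. The complement factor H-like gene cfhl4 had log2 fold changes of 1.43 in mutants and 7.61 in wild type (adjusted p = 1.87e-05). Txnipb, of the thioredoxin-interacting proteins that glucose induces in mammals, had 5.86, 3.6 and 1.43 CPM in mutant EECs, against 14.8, 16.9 and 15.2 CPM in mutant PECs. Wild-type EECs had 0.0975, 0.149 and 0.0323 CPM, so its PEC bias was smaller in mutants (-1.83 ± 0.43, against -8.47 ± 0.61 in wild type, interaction adjusted p = 3.98e-05).

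Of the 179 vanished differences, 93 had a called change between mutant and wild type in PECs alone, 51 in EECs alone, 18 in both and 17 in neither. These counts use the same samples as the class and describe it. Over all genes, 4.43% differed between mutant and wild-type EECs (1.97% higher and 2.45% lower) and 8.98% between mutant and wild-type PECs (4.03% higher and 4.95% lower). Tryptophan hydroxylase tph1b, the first enzyme of serotonin synthesis, had 115, 86.9 and 63.8 CPM in mutant EECs, against 66.8, 72.1 and 72 CPM in mutant PECs, which overlap. In wild type it had 121, 195 and 291 CPM in wild-type EECs, against 13.6, 9.85 and 22.7 CPM in wild-type PECs, a log2 fold change of 3.84 ± 0.36, against 0.58 ± 0.33 in mutants (interaction, adjusted p = 1.00e-03). The natriuretic peptide-like gene nppal had 42.4, 27.9 and 3.43 CPM in mutant EECs, against 53, 57.7 and 67.7 CPM in mutant PECs, where wild-type PECs had 2853, 2266 and 2232 CPM (interaction, adjusted p = 0.00274). All mutant PECs were still above all mutant EECs for nppal, but this difference was not called. Slc30a2, a zinc transporter gene, was at most 0.372 CPM in every mutant sample, and wild-type PECs had 10.2, 19.8 and 48.9 CPM (interaction, adjusted p = 0.0365). The slc30a2 interaction lost its call in 1 of the 12 fits that left out 1 sample (mutant EEC replicate 2), with adjusted p up to 0.682.

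For some vanished genes it was the gut level that met the pancreatic one. Ppp1r3b, which brings protein phosphatase to glycogen, had 15.8, 16.2 and 10.7 CPM in mutant EECs, against 13.6, 19.9 and 25.8 CPM in mutant PECs, while wild-type EECs had 0.569, 0.387 and 0.226 CPM (log2 fold change -0.22 ± 0.36 in mutants and -6.67 ± 0.48 in wild type, interaction adjusted p = 1.65e-05). The water channel gene aqp4 had 5.59, 4.65 and 3.43 CPM in mutant EECs, against 14, 3.99 and 3.8 CPM in mutant PECs, while wild-type EECs had at most 0.268 CPM (interaction, adjusted p = 0.00212). Differences toward the gut were lost as well. Complement factor D (cfd) had 43, 35.3 and 46.6 CPM in mutant EECs, against 21.2, 22.5 and 38.4 CPM in mutant PECs, where wild-type PECs had at most 1.33 CPM (log2 fold change 0.84 in mutants and 6.41 in wild type, interaction adjusted p = 0.0178). Prostaglandin synthase ptgs2a (log2 fold change 0.69 in mutants and 5.21 in wild type, adjusted p = 0.0492) and the receptor gene notch2 (-0.12 and 3.35, adjusted p = 0.00778) also vanished. The ptgs2a interaction lost its call in 7 of the 12 fits that left out 1 sample (mutant EEC replicates 1, 2 and 3, mutant PEC replicates 1, 2 and 3, wild-type EEC replicate 1), with adjusted p up to 0.138.

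Of the 196 appeared differences, 115 had a called change between mutant and wild type in PECs alone, 49 in EECs alone, 14 in both and 18 in neither. On the EEC side, the neurotrophin gene NTF3 (ENSDARG00000059043) had 31.4, 44 and 15.3 CPM in mutant EECs, against 0.0286, 0.288 and 0.579 CPM in mutant PECs, where wild type gave 13.5, 22.1 and 12.1 CPM in wild-type EECs, against 22.3, 25.2 and 15 CPM in wild-type PECs. The wild-type groups overlap and the mutant groups do not (interaction, adjusted p = 1.08e-04). Kcnip3b, a calcium-binding partner of potassium channels, had log2 fold changes of 3.89 in mutants and -1.0 in wild type (adjusted p = 6.27e-04).

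On the PEC side, the chemokine receptor gene CXCR4 (ENSDARG00000057633) had 0.251, 0.030 and 0.0892 CPM in mutant EECs, against 25.6, 18.6 and 21.2 CPM in mutant PECs. In wild type it had 6.24, 9.52 and 4.72 CPM in wild-type EECs, against 3.02, 2.94 and 6.22 CPM in wild-type PECs, so that mutant EECs were below and mutant PECs above their wild-type counterparts (log2 fold change -7.05 ± 0.62 in mutants and 0.84 ± 0.45 in wild type, interaction adjusted p = 1.87e-05). The gene ehbp1l1a had 1.04, 2.16 and 0.892 CPM in mutant EECs, against 63, 75.8 and 50.5 CPM in mutant PECs, while wild-type PECs had 1.85, 1.95 and 1.36 CPM (interaction, adjusted p = 4.57e-04). Emilin1a, a glycoprotein of elastic fibres, had 10.9, 12.1 and 8.17 CPM in mutant PECs and 1 count over all mutant EECs, a ratio of PECs over EECs of 1114 (95% exact counting interval 199 to 44029). Wild-type PECs had at most 0.308 CPM of it (interaction, adjusted p = 0.00401). The chloride channel-related gene clic2 had 0.443, 0.45 and 0.357 CPM in mutant EECs, against 13.4, 11.6 and 13.2 CPM in mutant PECs, while wild-type PECs had at most 0.259 CPM (interaction, adjusted p = 0.00777).

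Reversed differences included a hormone receptor and a translation repressor. The glucagon receptor gene gcgra had 9.43, 3.33 and 3.52 CPM in mutant EECs, against 0.716, 1.4 and 1.12 CPM in mutant PECs. In wild type it had 1.2, 2.32 and 0.97 CPM in wild-type EECs, against 41.2, 53.8 and 51.6 CPM in wild-type PECs, and its log2 fold change was 2.59 ± 0.47 in mutants and -4.99 ± 0.5 in wild type (interaction, adjusted p = 1.65e-05). The bZIP factor gene cebpd had 114, 66.2 and 35.6 CPM in mutant EECs, against 1.29, 2.38 and 2.6 CPM in mutant PECs, and wild type gave 15.6, 10.7 and 12.1 CPM in wild-type EECs, against 25.7, 66.4 and 97 CPM in wild-type PECs. In both genotypes the tissues did not overlap, in opposite order (log2 fold change 5.36 ± 0.53 in mutants and -2.2 ± 0.45 in wild type, interaction adjusted p = 1.66e-05). EIF4EBP3 (ENSDARG00000041607), of the family that holds back cap-dependent translation, had 111, 55.3 and 29.6 CPM in mutant EECs, against 3.49, 4.52 and 2.17 CPM in mutant PECs (log2 fold change 4.52 in mutants and -2.34 in wild type, interaction adjusted p = 3.46e-05).

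Toward the PEC side, the contactin-associated gene cntnap5l had 2.85, 4.2 and 2.01 CPM in mutant EECs, against 22, 31.2 and 22.4 CPM in mutant PECs, where wild type gave 8.31, 5.21 and 1.91 CPM in wild-type EECs, against 0.521, 0.513 and 0.856 CPM in wild-type PECs (interaction, adjusted p = 1.87e-04). The sodium channel gene scn1a (log2 fold change -1.73 in mutants and 2.05 in wild type, adjusted p = 0.0142) and mctp1a (-3.53 and 1.68, adjusted p = 0.00178) were reversed in the same direction. The urocortin-like gene ucn3l, a beta-cell product, was counted as reversed, but in mutants it had reads in 1 EEC preparation only (0.251 CPM), while wild-type PECs had 7.03, 8.21 and 15.7 CPM. Its mutant difference (adjusted p = 0.0969) lost its call in 7 of the 12 fits that left out 1 sample (mutant PEC replicates 1, 2 and 3, wild-type EEC replicate 1, wild-type PEC replicates 1, 2 and 3), with adjusted p up to 1, and was not called with DESeq2 or with RLE scaling. The ucn3l interaction lost its call in 1 of the 12 fits that left out 1 sample (mutant EEC replicate 1), with adjusted p up to 1.

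**Figure D4:**
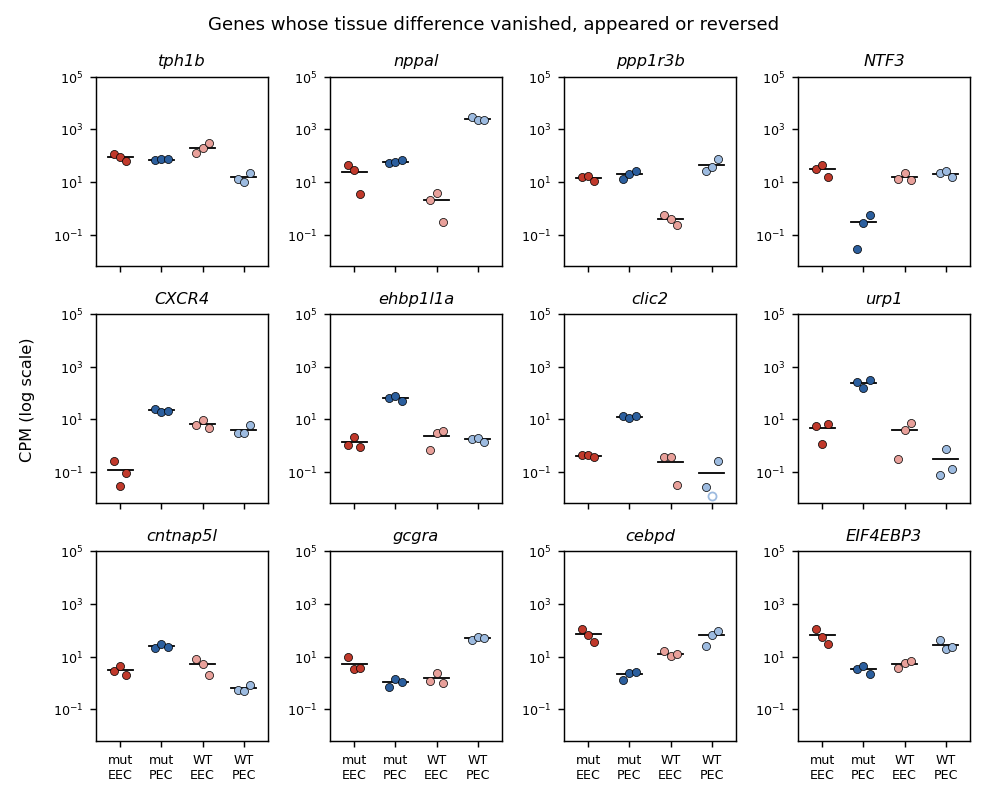
Levels in CPM on a log scale of 12 genes whose tissue difference vanished (tph1b, nppal, ppp1r3b), appeared (NTF3, CXCR4, ehbp1l1a, clic2) or was reversed (urp1, cntnap5l, gcgra, cebpd, EIF4EBP3) without Pax6b, 1 point per preparation and a line at the mean of each group (mut, pax6b mutant; WT, wild type); an open circle is a preparation at 0. The spacing or the order of EECs and PECs differs between the mutant and the wild-type points, as for cebpd with 35.6 to 114 CPM in mutant EECs and 1.29 to 2.6 CPM in mutant PECs.

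Several gene lists had more members higher in mutant EECs than in mutant PECs. Their counts are read against the 19.4% of all genes higher in mutant EECs and the 15.4% higher in mutant PECs. In wild type these shares were 20.1% and 16.2%. Of 47 hox genes, which mark position along the body, 27 were higher in mutant EECs and 2 in mutant PECs (31 and 1 in wild type). Hoxa10b had 12.8, 18.5 and 24 CPM in mutant EECs and was at 0 in all 3 preparations of mutant PECs, at least 174-fold more against the floor, and hoxb10a had 27.5, 33.4 and 36 CPM in mutant EECs against 1 count over all mutant PECs. The opposite direction was seen for hoxc1a, with 2.22, 2.28 and 0.714 CPM in mutant EECs, against 49, 55.3 and 71.8 CPM in mutant PECs, and for hoxc5a, which were named after their values were seen.

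Of 28 genes of lipid absorption, 21 were higher in mutant EECs and 1 in mutant PECs (20 and 1 in wild type), with a median log2 fold change of 4.66, against 0.01 over all genes tested. Without mutant EEC replicate 1 the median was 3.14, with 20 genes higher in mutant EECs. They include abcg5, a sterol exporter, at 31, 14.5 and 14.8 CPM in mutant EECs and 1 count over all mutant PECs, and the fatty acid-binding gene fabp1b.1, at 199, 30.2 and 32.6 CPM in mutant EECs, against 0.115, 0 and 0.108 CPM in mutant PECs. Cytochrome P450 genes followed, with 35 of 72 higher in mutant EECs and 6 in mutant PECs (31 and 7 in wild type). Cyp1a, which metabolizes foreign compounds, was uneven, at 19.5, 3.09 and 212 CPM in mutant EECs and at most 0.253 CPM in mutant PECs. The enterocyte markers include fabp1b.1 of the lipid absorption list, so these lists are not independent of each other. All 13 stood higher in mutant EECs by their means, with averages for vil1 of 803 CPM in mutant EECs and 0.157 CPM in mutant PECs, and for anpepb of 359 CPM in mutant EECs and 0.144 CPM in mutant PECs, and their part in the result was not tested.

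Clock and stress genes stood on the EEC side in both genotypes. Of 29 circadian clock genes, 19 were higher in mutant EECs and none in mutant PECs (22 and none in wild type). The clock repressor gene nr1d1 had 88.5, 158 and 31.8 CPM in mutant EECs, against 0.0286, 0 and 0.217 CPM in mutant PECs, a log2 fold change of 10.37 ± 0.91, against 6.2 ± 0.72 in wild type (interaction, adjusted p = 0.0614). The nr1d1 interaction lost its call in 6 of the 12 fits that left out 1 sample (mutant EEC replicate 2, mutant PEC replicates 1 and 2, wild-type EEC replicates 2 and 3, wild-type PEC replicate 1), with adjusted p up to 0.199. Of 36 immediate early and heat shock genes, 21 were higher in mutant EECs and 4 in mutant PECs (21 and 2 in wild type), as for hsp70l with 3701, 3584 and 4403 CPM in mutant EECs, against 14, 36.4 and 22.9 CPM in mutant PECs. Hsp70l has near-identical copies in the genome, so its counts are uncertain. Mutant EECs and mutant PECs also differed in age and in the dissociation enzymes, which cannot be told apart from the tissue here.

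Glycolysis and gluconeogenesis genes were higher in mutant EECs for 20 of 27 and higher in mutant PECs for 3, against 13 and 3 in wild type. The interaction was called for 5 of the 27, all toward EECs, and for 3 with RLE scaling. Over all genes it was called toward EECs for 1.71%. Ribosomal protein genes were higher in mutant EECs for 68 of 81 and higher in mutant PECs for none, against 13 of 81 in wild type, by a small median log2 fold change of 0.78 (0.18 in wild type). Between mutant and wild-type EECs none of the 81 was called. Between mutant and wild-type PECs 38 were lower in mutants and none higher, where 4.95% of all genes were lower and 4.03% higher. Of the 81, 2 had a called interaction, against 3.58% of all genes. The number higher in mutant EECs fell to 37 without mutant EEC replicate 2 and to 39 without mutant PEC replicate 3. Together these genes summed to 64809 to 78199.8 CPM in mutant EECs and 48114 to 53981 CPM in mutant PECs, where wild type had 65636 to 85092 CPM in EECs and 59937 to 79461 CPM in PECs. Claudins, the proteins of tight junctions, were higher in mutant EECs for 13 of 32 and in mutant PECs for 6 (9 and 7 in wild type), with cldnc at 317, 319.6 and 326 CPM in mutant EECs, against 1.52, 1.32 and 1.95 CPM in mutant PECs (log2 fold change 7.89 in mutants and 4.7 in wild type, interaction adjusted p = 0.00614).

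Cadherin and contactin, calcium channel and cell cycle genes were more often higher in mutant PECs than in mutant EECs. Of 89 cadherin and contactin genes, 12 were higher in mutant EECs and 38 in mutant PECs (8 and 33 in wild type). The neural cadherin gene cdh4 had 0.116, 0.51 and 0.758 CPM in mutant EECs, against 112, 75.5 and 53.9 CPM in mutant PECs, while the intestinal cadherin gene cdh17 had 516, 428 and 317 CPM in mutant EECs, against 1.63, 0.781 and 2.21 CPM in mutant PECs. Calcium channel genes were higher in mutant EECs for 12 of 86 and in mutant PECs for 30 (13 and 26 in wild type), among them cacna1ab with 0.54, 0.27 and 0.0446 CPM in mutant EECs, against 41.3, 51.6 and 10.3 CPM in mutant PECs. Its tissue difference was -6.51 in mutants and -3.14 in wild type (interaction, adjusted p = 0.0655). The cacna1ab interaction lost its call in 7 of the 12 fits that left out 1 sample (mutant EEC replicates 2 and 3, mutant PEC replicates 1 and 2, wild-type EEC replicate 3, wild-type PEC replicates 1 and 2), with adjusted p up to 0.173. Cell cycle genes were higher in mutant EECs for 3 of 41 and in mutant PECs for 15 (6 and 11 in wild type). TOP2A (ENSDARG00000024488), a topoisomerase of dividing cells, had 0.0771, 0.42 and 0.0446 CPM in mutant EECs, against 26.8, 24.5 and 13.3 CPM in mutant PECs, with log2 fold changes of -6.6 in mutants and -2.83 in wild type (interaction, adjusted p = 0.081). The TOP2A interaction lost its call in 9 of the 12 fits that left out 1 sample (mutant EEC replicates 1 and 3, mutant PEC replicates 1 and 2, wild-type EEC replicates 1 and 2, wild-type PEC replicates 1, 2 and 3), with adjusted p up to 0.205, and it was not called with all 4 wild-type EEC samples.

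The genes of the secretory machinery were on both sides of the comparison. Over all genes, 19.4% were higher in mutant EECs and 15.4% in mutant PECs (20.1% and 16.2% in wild type). Of 36 genes of granules and hormone processing, 8 were higher in mutant EECs and 11 in mutant PECs, the same counts as in wild type. Of these differences 16 remained, where 23.1% of all genes did, 3 were called in mutants alone and 3 in wild type alone. The interaction was called for 1 gene (4 with DESeq2), against 3.58% of all genes in the main fit. Nutrient and irritant sensors were higher in mutant EECs for 7 of 11 genes and in mutant PECs for 3 (8 and 3 in wild type), and the 3 fell to 1 without mutant EEC replicate 2 or mutant PEC replicate 1. The irritant channel gene trpa1b had 245, 226 and 216 CPM in mutant EECs, against 1.0, 2.51 and 0.362 CPM in mutant PECs, with a log2 fold change of 7.73 ± 0.65, against 9.0 ± 0.68 in wild type. The decarboxylase gene ddc, which makes serotonin and dopamine from their precursors, had 732, 878 and 465 CPM in mutant EECs, against 3.35, 2.92 and 4.95 CPM in mutant PECs, with log2 fold changes of 7.79 ± 0.46 in mutants and 9.39 ± 0.5 in wild type.

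**Figure D5:**
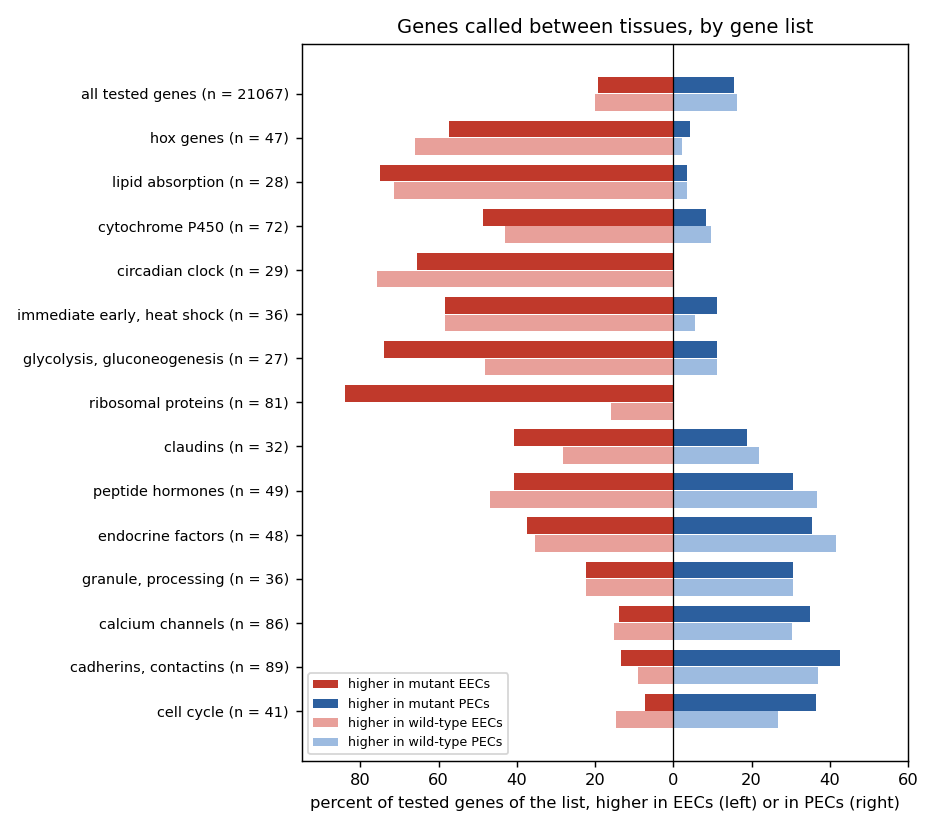
Share of the tested genes of each list that were higher in EECs (bars to the left, percent) or higher in PECs (bars to the right) at an adjusted p under 0.1, in mutants (dark) and in wild type (pale). Lipid absorption (21 of 28) and ribosomal protein genes (68 of 81) have the longest bars toward mutant EECs, and cadherins with contactins (38 of 89) toward mutant PECs.

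The study's marker lists of islet cell subtypes had changes in both tissues. Against wild type, 2 beta-cell genes were higher and 2 lower in mutant EECs, and 1 and 19 in mutant PECs. For delta-cell genes the counts were 4 and 4 in mutant EECs, and 4 and 14 in mutant PECs. For epsilon-cell genes they were 14 and 2 in mutant EECs, and 19 and 1 in mutant PECs. Over all genes, 1.97% were higher and 2.45% lower in mutant EECs, and 4.03% and 4.95% in mutant PECs. Between the tissues, 19.4% of all genes were higher in mutant EECs and 15.4% in mutant PECs (20.1% and 16.2% in wild type). Of 46 beta-cell genes tested, 5 were higher in mutant EECs and 16 in mutant PECs, against 3 and 23 in wild type. The 5 fell to 2 without mutant PEC replicate 1 and with DESeq2. The interaction was called for 8 of the 46, all toward EECs in mutants, against 1.71% of all genes in this direction. Delta-cell genes were higher in mutant EECs for 9 of 46 and in mutant PECs for 19 (8 and 22 in wild type), with interactions toward EECs for 5 and toward PECs for 3. Alpha-cell genes were higher in mutant EECs for 10 of 47 and in mutant PECs for 13 (8 and 17 in wild type), with 4 and 3. Of 45 epsilon-cell genes, the list of ghrelin cells, 13 were higher in mutant EECs and 18 in mutant PECs (15 and 18 in wild type). The interaction was called toward PECs for 10 of these, NAT8L, mlnl and ehbp1l1a among them, and toward EECs for 2, against 1.87% of all genes toward PECs. Pan-endocrine genes were higher in mutant EECs for 12 of 50 and in mutant PECs for 16 (9 and 17 in wild type), with interactions for 2 toward EECs and 1 toward PECs.

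The overall sharing of expressed genes was nearly the same in both genotypes. Of the genes with a mean above 10 CPM in at least 1 mutant tissue, 74.6% were above 10 CPM in both, against 73.6% in wild type. Over the 9 pairs of single samples the share ran from 70.9% to 74.8% in mutants and from 67.5% to 72.5% in wild type, and these ranges overlap. Genes above 5 CPM in one tissue and below 1 CPM in the other numbered 391 for mutant EECs and 293 for mutant PECs, where wild type had 416 and 254. For EECs 238 genes were on both lists, 60.9% of the mutant list and 57.2% of the wild-type list. For PECs 98 genes were on both, 33.4% of the mutant list and 38.6% of the wild-type list. Of the 254 genes selective for wild-type PECs, 212 were still called higher in mutant PECs than in mutant EECs, 2 were called in the opposite direction and 40 were not called. Of 415 tested genes selective for wild-type EECs, 391 were called higher in mutant EECs, 2 in the opposite direction and 22 were not called. Over all genes, 15.4% were higher in mutant PECs and 19.4% in mutant EECs.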

How the data were processed

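The authors sorted GFP+ cells, made Smart-seq2 and Nextera-XT libraries, trimmed the reads, mapped them to GRCz11 with STAR 2.5.4b and counted them per gene of Ensembl. The deposited counts are whole numbers per gene and sample, not normalized, and their column for reads without regard to strand was used. Reads of overlapping or antisense genes therefore cannot be separated. Symbols came from the study's tables for 5831 of 31901 gene IDs and from a reference list for 23437, and 2633 had none.

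Counts of 12 samples (wild-type EEC replicate 4 was left out, as in the study's comparison of mutants) were fitted together in edgeR 4.0.16 (limma 3.58.1, R 4.3.3), with filterByExpr over the 4 groups, TMM normalization and a robust quasi-likelihood fit. Contrasts were mutant EECs against mutant PECs, the same in wild type, their difference (the interaction) and mutant against wild type within each tissue, with Benjamini-Hochberg adjustment over 21067 genes and a threshold of 0.1. The fit was tested on simulated data. DESeq2 1.42.0 was an alternative. Tables were made in Python 3.11.15 (pandas 2.3.3, scipy 1.17.1), and plots with matplotlib 3.10.9.

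The genes named are pax6a and pax6b, hormones and transcription factors of the lists with at least 10 CPM in a group, the 10 largest mutant differences in each direction and the 8 largest interactions of each class in each direction among genes of at least 10 CPM, and up to 4 members of each list, and the text gives part of them. The comparison and the lists were chosen with earlier results of these data known.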

Additional observations from a re-analysis of the deposited data

Results flagged for a closer look

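For 755 genes the difference between EECs and PECs itself differed between mutants and wild type, by edgeR's test of the interaction of genotype and tissue. The sizes below are log2 values, the mutant difference minus the wild-type difference, so a positive size means a shift toward EECs in mutants. For genes with almost no reads in a group, such as crip1, emilin1a, fbp1b, slc30a2 and ucn3l, the size depends on the prior count of the fit and is no measured fold.

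Among the genes named above whose tissue difference remained, shifts toward EECs were 4.11 for pyya, 8.29 for ins, 4.04 for sst2, 2.4 for gcgb, 3.0 for nhlh2, 3.77 for tbx2b, 1.77 for cdx1b, 4.89 for neurog3, 4.12 for crip1, 6.84 for pck1, 6.64 for txnipb, 5.4 for rorcb, 6.15 for lipia, 6.43 for fbp1b, 4.18 for nr1d1 and 3.19 for cldnc. Shifts toward PECs in this class were -2.44 for pyyb, -4.1 for insl5a, -3.02 for mlnl, -2.51 for nmu, -3.42 for insl5b, -1.98 for insm1b, -2.96 for gata6, -1.77 for hnf4g, -2.45 for oc90, -6.16 for MKX, -5.29 for NAT8L, -5.16 for atp8b3, -6.17 for cfhl4, -3.38 for cacna1ab and -3.76 for TOP2A.

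Vanished differences had shifts toward EECs of 1.99 for pdx1, 1.22 for hnf1ba, 5.6 for nkx6.2, 7.21 for emx2, 9.16 for nppal, 6.45 for ppp1r3b, 6.72 for aqp4 and 5.96 for slc30a2, and shifts toward PECs of -3.26 for tph1b, -5.57 for cfd, -4.52 for ptgs2a and -3.46 for notch2. Appeared differences had shifts toward EECs of 7.34 for NTF3 and 4.9 for kcnip3b, and shifts toward PECs of -1.58 for arxa, -2.01 for etv1, -8.7 for emilin1a, -7.88 for CXCR4, -5.78 for ehbp1l1a and -6.01 for clic2.

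Reversed differences had shifts toward EECs of 7.58 for gcgra, 7.57 for cebpd, 6.86 for EIF4EBP3 and 10.21 for ucn3l, and shifts toward PECs of -9.33 for urp1, -5.88 for cntnap5l, -3.77 for scn1a and -5.22 for mctp1a. For ucn3l the mutant side rested on the reads of 1 EEC preparation, and for urp1 the wild-type groups were low and overlap.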

How the results depend on the processing

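The alternatives planned were another tool (DESeq2), RLE scaling, 2 other count filters, an adjusted p under 0.05, a log2 difference of at least 1, all 4 wild-type EEC samples, a fit of the 6 mutant samples alone, a replicate block, and leaving out each sample in turn. Those of the gene lists were chosen after seeing the data. The count of genes that differed between mutant EECs and mutant PECs lay between 5948 and 8038 under the settings that kept all samples, and from 5918 to 8051 when 1 sample was left out (3369 to 4376 higher in mutant EECs, 2525 to 3675 higher in mutant PECs). Remaining differences numbered 4197 to 4749 when 1 sample was left out. DESeq2 called 1301 interactions, 333 vanished and 390 appeared differences. A threshold of 0.05 left 480 interactions and 56 reversed differences. Leaving out 1 sample gave 503 to 1017 interactions, 115 to 290 vanished, 130 to 273 appeared and 65 to 112 reversed differences. The cause of these shifts was not tested.

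The share of genes above the level in both mutant tissues was 80.5% at 1 CPM and 59.3% at 50 CPM, and 73.3% to 75.1% when 1 sample was left out. When every sample had to meet the limits, 196 genes were selective for mutant EECs and 135 for mutant PECs, and with 1 sample left out 348 to 426 and 284 to 315. The count of ribosomal protein genes higher in mutant EECs was 37 to 61 when 1 mutant sample was left out, 52 with RLE and 50 with DESeq2. Potassium and HCN channel genes higher in mutant PECs, 25 in all, were 16 to 23 when 1 mutant sample was left out, with 16 without mutant EEC replicate 2. The other list counts of 10 or more for either mutant tissue stayed within 1.5 times of their value with RLE, DESeq2 or 1 mutant sample left out. Smaller counts moved further. Those higher in mutant PECs were 2 to 7 for cytochrome P450 (6), 3 to 7 for ABC transporter (6), 1 to 3 for glycolysis (3), 1 to 3 for sensor (3), 1 to 4 for oxidative phosphorylation (3), 0 to 1 for lipid absorption (1) and for exocrine marker genes (1), and 1 to 2 for monoamine synthesis genes (2). Those higher in mutant EECs were 5 to 8 for granule (8), 2 to 5 for cell cycle (3) and 2 to 5 for beta-cell genes (5).

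With the replicate number as a block, 7031 genes differed between the mutant tissues, 579 interactions were called, and 4686 differences remained, 126 vanished, 165 appeared and 83 were reversed. The numbers were not taken to pair the samples, and a block within the mutants alone was not fitted. Same-numbered mutant EEC and PEC samples had correlated deviations from their group means (r of 0.0757 to 0.25 over genes, and 6 of 6 samples were closest to their own number), but other pairs of groups had r of −0.137 to 0.0867, and no label states a shared day or batch. The block took away the interaction call of 7 of the 59 named genes, nmu, arxa, hnf1ba, fbp1b, nr1d1, cacna1ab and TOP2A.

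Of the 59 named interactions, 14 lost their call under some alternative, and none changed direction. Of the 96 named differences between the mutant tissues that were called, 9 lost their call or reversed. Directions turned only when 1 sample was left out, for differences near 0 or near the floor, with ranges of −0.54 to 0.19 for nkx6.2, −0.038 to 0.75 for emx2, −0.46 to 0.000486 for ppp1r3b, −0.74 to 0.45 for aqp4, −0.34 to 0.12 for notch2 and 0 to 5.57 for ucn3l. Rescaling by RLE moved the median log2 fold change of all genes between the mutant tissues to −0.0703, against 0.0108. Depth limits statements on genes below 0.134 CPM, the floor of 3 counts in the smallest mutant library, and intervals and floors cover counting error only, since the libraries carried no molecular identifiers.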

Other observations

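Some gene groups had members on both sides of the mutant comparison, in which 19.4% of all genes were higher in mutant EECs and 15.4% in mutant PECs. Of 87 axon guidance genes, 25 were higher in mutant EECs and 24 in mutant PECs (23 and 19 in wild type), and of 96 potassium and HCN channel genes 19 and 25 (17 and 19 in wild type), where the 25 fell to 16 without mutant EEC replicate 2. Notch pathway genes were higher in mutant EECs for 5 of 30 and in mutant PECs for 10 (7 and 14 in wild type). Some her4 genes of this list are near-identical copies and their counts are uncertain. Collagen, laminin and integrin genes were higher in mutant EECs for 12 of 91 and in mutant PECs for 18 (12 and 11 in wild type).

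Against the same shares of all genes, ABC transporter genes were higher in mutant EECs for 19 of 50 and in mutant PECs for 6 (25 and 5 in wild type). Of 96 genes of oxidative phosphorylation, 27 were higher in mutant EECs and 3 in mutant PECs (25 and 6 in wild type), with a median log2 fold change of 0.35. Of the 9 genes of monoamine synthesis tested, 1 was higher in mutant EECs and 2 in mutant PECs, against 3 and 2 in wild type.

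Markers of other cells differed between the mutant tissues to a lesser extent. Exocrine pancreas markers summed to 42.6 to 53.9 CPM in mutant EECs and 15.4 to 17 CPM in mutant PECs, and were higher in mutant EECs for 4 of 10 and in mutant PECs for 1. Epidermal markers summed to 279 to 389 CPM in mutant EECs and 10.2 to 439 CPM in mutant PECs. Of the 6 tested, 0 were higher in mutant EECs and 3 in mutant PECs, with a median log2 fold change of -1.84. Without mutant PEC replicate 2 the counts were 2 and 2 and the median was 0.68. Among genes selective for wild-type EECs that were no longer so in mutants, 101 had reached 1 CPM in mutant PECs, 92 had at most 5 CPM in mutant EECs and 15 of these met both. For PECs the numbers were 77, 91 and 12.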
